A study of Mus musculus with 6 samples.

Results

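Integrin subunit genes were examined in T follicular helper (Tfh) cells, which guide B cells through the germinal center reaction, sorted from the mesenteric lymph nodes of mice with and without a conditional deletion of Bach2, a transcriptional repressor. The 10 genes were picked by symbol, 9 integrin subunits (Itgal, Itgb2, Itga4, Itgb7, Itgb1, Itgae, Itgav, Itgb3 and Itga6) and Icam1, which is no integrin but a ligand of one. All 10 were found among the 14744 gene symbols of the deposited table, and all 10 passed the filter on low values that left 11296 genes for testing. The WT group was made of Cd4-Cre littermates with intact Bach2, and the Bach2-cKO group of Bach2 fl/fl mice carrying Cd4-Cre, both on a C57BL/6J background, labelled C57BL/6, and 2 to 3 months old. Each group had 3 libraries. Cd4-Cre acts from the stage of the thymus at which CD4 is first made, so the deletion is not limited to Tfh cells, and both groups carried the Cre. Tfh cells were sorted as CD4+B220-CD44+PD-1+CXCR5+ cells, 10000 to 30000 per sample, and bulk RNA was sequenced after amplification of the cDNA. Whether each library came from a single mouse is not given in the sources used here, so the spread between libraries may be in part technical.

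Integrins are receptors made of an alpha and a beta chain that hold cells to other cells and to matrix. On a resting T cell most of them are bent and bind weakly, and signals from the T cell receptor or a chemokine receptor straighten them through the small GTPase Rap1 and the cytoskeletal protein talin. LFA-1, made of Itgal and Itgb2, is the main adhesion receptor of T cells and holds a Tfh cell to its partner B cell by binding ICAM-1 and ICAM-2. The alpha 4 chain pairs with beta 7 to bring lymphocytes into gut tissue and its lymph nodes, and with beta 1 to bind VCAM-1 and fibronectin.

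The deposited values were read counts normalized for library size. Dividing each library by its smallest positive value gave whole reads, with totals of 6585742 and 7823717 for WT replicates 2 and 3 and of 5045131, 10987752 and 7197242 for the libraries labelled Bach2-cKO replicates 1, 2 and 3. WT replicate 1 stood apart from the rest. It had a value above 0 for 11648 genes, where the other 5 libraries had between 13111 and 13567, and its Pearson correlation with them over log2 values of all tested genes lay between 0.789 and 0.862, where the other 5 correlated with each other at 0.885 to 0.949. Values that moved by over 1.5 times without this library are therefore also given without it for the 10 genes and for the counts and medians printed for lists of adhesion genes.

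The targeted gene went against the label. Bach2 had normalized read counts of 233, 222 and 105 in WT replicates 1, 2 and 3 and of 399, 763 and 591 in the libraries labelled Bach2-cKO replicates 1, 2 and 3. Every library labelled Bach2-cKO was above every WT library, and the log2 fold change was 1.68 (SE 0.37, adjusted p = 0.141, limma). DESeq2 on 5 libraries gave 1.81 (adjusted p = 0.00123), past an adjusted p of 0.01 and a 2-fold change, the thresholds used here. With transcript length and GC content adjusted for, as described below, the log2 fold change of Bach2 was 1.10 (adjusted p = 0.295, limma). A gene-level value can take in exons outside the part flanked by loxP sites, so it does not show whether the deletion took place. All directions that follow are those of the libraries labelled Bach2-cKO against the WT libraries.

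The sort was checked against markers. The gate genes Cxcr5 (1271 to 2207) and Pdcd1 (1462 to 2708), which encode CXCR5 and PD-1, were present in all 6 libraries, and all 9 Tfh genes of the marker list were in the table and tested. At an unadjusted p under 0.05, 2 of the 9 (Bcl6 and Tox2) were higher and 1 (Icos) lower, beside 10.1% and 10.2% of all tested genes. Without WT replicate 1 the counts were 2 and 3, beside 9.82% and 9.42%. The log2 fold change of Icos was -1.03 (adjusted p = 0.146, limma). DESeq2 on 5 libraries gave Icos -1.30 (adjusted p = 0.00176), past the thresholds. The 6 T cell genes summed to 72209, 71655 and 93061 in the WT libraries and to 57207, 57867 and 68944 in the libraries labelled Bach2-cKO, with Cd3d the most abundant, so the groups did not overlap. The genes of that list did not move together. Cd3e (9648 to 11924 in WT libraries, 4534 to 6140 in the others) was lower and Cd4 (2407 to 2792 against 3341 to 4131) higher in every library labelled Bach2-cKO, and Trac, lower at an unadjusted p under 0.05, had groups that overlapped, as did Cd3d, Cd3g and Lck. Genes of other cells were present as well, and fewer cells of a type and less RNA per cell cannot be told apart in bulk samples.

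Itgal, the alpha chain of LFA-1, had the smallest p-value of the 10 genes and was higher in the libraries labelled Bach2-cKO. Itgal, on chr7:127296260-127335138 of GRCm38, plus strand, had normalized read counts of 1614, 2671 and 2898 in WT replicates 1, 2 and 3 and of 7365, 5114 and 4049 in the libraries labelled Bach2-cKO replicates 1, 2 and 3. All libraries labelled Bach2-cKO lay above all WT libraries, the highest being replicate 1 and the lowest WT replicate 1. The means were 2394 ± 685 (SD, n = 3) and 5509 ± 1693 (SD, n = 3), a fold of 2.30. On the log2(value + 1) scale used for all tests the change was 1.20 (SE 0.28, 95% interval 0.57 to 1.83, adjusted p = 0.141, limma), short of the threshold of an adjusted p of 0.01. The unadjusted p of the same limma fit was 0.00163. Without WT replicate 1 the log2 fold change was 0.94 (adjusted p = 0.147, limma).

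Transcript length moved with the groups. Across the 10962 tested genes with a known length, log2 fold change and longest transcript correlated at a Spearman's rho of 0.322, genes not being independent replicates, and longer genes were the higher ones in the libraries labelled Bach2-cKO. When each library was adjusted for transcript length and GC content by a smooth curve, an alternative chosen after seeing the data, the log2 fold change of Itgal was 0.61 (adjusted p = 0.271, limma), while the median over all genes moved from 0.08 to -0.04. Its longest transcript has 5222 bases.

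Itgb2, the beta chain that Itgal needs to reach the cell surface and that other leukocyte alpha chains share, lies on chr10:77530252-77565708, plus strand. It had normalized read counts of 2396, 1983 and 1766 in WT replicates 1, 2 and 3 and of 2697, 2195 and 2091 in the libraries labelled Bach2-cKO. The groups overlapped, since WT replicate 1 was above both replicates 2 and 3 of the other group. The log2 fold change was 0.19 (95% interval -0.26 to 0.63, adjusted p = 0.600, limma), so the interval leaves out a 2-fold change in either direction. Without WT replicate 1 it was 0.31, and with length and GC content adjusted for it was -0.01.

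The balance of the LFA-1 chains followed Itgal. The ratio of Itgal to Itgb2, each per kb of its longest transcript, was 0.383, 0.766 and 0.933 in WT replicates 1, 2 and 3 and 1.55, 1.32 and 1.10 in the libraries labelled Bach2-cKO replicates 1, 2 and 3. Itgal was below its partner per kb in every WT library and above it in every library labelled Bach2-cKO. The mean log2 ratio differed by 1.02, by 0.64 without WT replicate 1, and by 0.62 with length and GC content adjusted for. An exact two-sided permutation test gave p = 0.1, the smallest that 3 against 3 libraries can give, and 0.7 after adjustment over the 7 ratios examined. Itgal made up 21.3%, 27.9% and 34.8% of the summed value of the 10 genes in WT replicates 1, 2 and 3 and 50.2%, 41.9% and 42.1% in the libraries labelled Bach2-cKO.

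**Figure D1:**
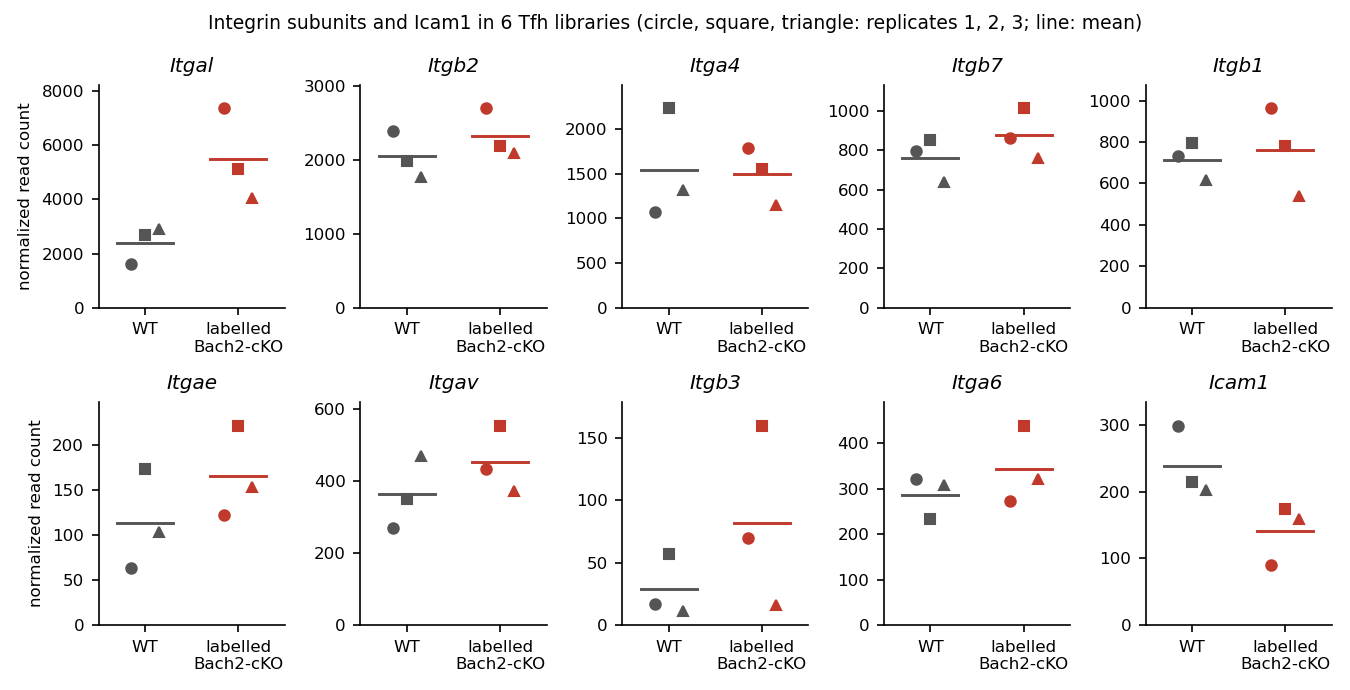
Normalized read count of each of the 10 genes in each of the 6 Tfh libraries, 3 WT and 3 labelled Bach2-cKO, each panel with its own axis from 0, with marker shape for the replicate number and a line at the mean. Itgal is higher in every library labelled Bach2-cKO (4049 to 7365) than in every WT library (1614 to 2898), Icam1 is lower, and the groups overlap for the other 8 genes.

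Icam1, a ligand of LFA-1 that activated lymphocytes, dendritic cells and endothelium carry, showed the opposite order. Its normalized read counts were 299, 214 and 202 in WT replicates 1, 2 and 3 and 90.2, 174 and 159.6 in the libraries labelled Bach2-cKO replicates 1, 2 and 3. All 3 libraries labelled Bach2-cKO were below all WT libraries, with replicate 1 the lowest and a narrow gap between WT replicate 3 and replicate 2 of the other group. The means were 238 ± 52.8 (SD, n = 3) and 141 ± 44.9 (SD, n = 3). The log2 fold change was -0.78 (SE 0.36, 95% interval -1.58 to 0.01, adjusted p = 0.249, limma), -0.61 without WT replicate 1 (adjusted p = 0.362, limma) and -0.98 with length and GC content adjusted for. Without the library labelled Bach2-cKO replicate 1 it was -0.49. Icam1 overlaps Gm47079 on the other strand, and the sources used here do not say that counting used strand, so reads of the pair cannot be told apart.

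The sequence before the start of Icam1 is shown because Icam1 was 1 of the 2 genes whose groups did not overlap, and the given table holds it. RefSeq promoters were given for 5 of the 10 genes, Itga4, Itgb7, Itgb1, Itgav and Icam1. The 250 bases before the RefSeq start of Icam1 on GRCm38.p6, chr9:21015690-21015939, plus strand, are printed 5′ to 3′, with capitals for the matches to the motifs searched.
Icam1: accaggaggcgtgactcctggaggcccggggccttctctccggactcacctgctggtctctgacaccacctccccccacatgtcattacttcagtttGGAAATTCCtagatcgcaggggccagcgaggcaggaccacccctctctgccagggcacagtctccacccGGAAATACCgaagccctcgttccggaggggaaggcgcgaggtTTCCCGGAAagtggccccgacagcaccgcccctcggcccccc
Searched on both strands were TGANTCA, the core that AP-1 and Bach2 share, TTCNNNGAA, bound by STAT factors, and GGNNNTTCC, bound by NF-kappaB. TGANTCA was not found in this window. GGNNNTTCC matched at GGAAATTCC, which fits the motif on both strands, and at GGAAATACC, starting 153 and 84 bases before the start, and TTCNNNGAA matched at TTCCCGGAA, starting 42 bases before it. None of the 3 matches overlapped another. Among 32851 RefSeq promoters cut to the same 250 bases, 6.75% held TGANTCA, 7.02% held TTCNNNGAA and 15.7% held GGNNNTTCC. In the other 4 genes 1 match was found, GGGCTTTCC of the NF-kappaB motif in Itgb1. A match describes letters and shows no binding.

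The other ligands of integrins were 12 genes, of which 11 were in the table and 5 tested. Thy1, a surface glycoprotein of mouse T cells that binds beta 3 integrins, was the most abundant and had values of 1039, 1283 and 1194 in WT replicates 1, 2 and 3 and of 3622, 2631 and 1825 in the libraries labelled Bach2-cKO. Icam2, a second ligand of LFA-1 present on resting lymphocytes, had 938, 874 and 1229 against 451, 653 and 568. Icam4, a ligand known from red cells, had 0, 15.7 and 13.5 against 41.4, 60.3 and 56.3. For Thy1 and Icam4 every library labelled Bach2-cKO was above every WT library, and for Icam2 every one was below, 2 of 5 tested ligands higher and 1 lower, where 14.6% and 12.2% of all tested genes had such groups. The same 3 had an unadjusted p under 0.05, beside 10.1% and 10.2% of all genes. The groups of Vcam1 and Spp1, the other tested ligands, overlapped, and the log2 fold change of Vcam1 went from 2.31 to 0.16 and that of Spp1 from 0.31 to -1.59 without WT replicate 1. The log2 fold changes were 1.15 for Thy1 (adjusted p = 0.141, limma), -0.86 for Icam2 (adjusted p = 0.144, limma) and 3.09 for Icam4 (adjusted p = 0.180, limma), the last falling to 1.77 without WT replicate 1, where Icam4 was listed at 0. The untested ligands, Madcam1, Fn1, Cdh1, F11r, Jam2 and Icam5, did not exceed 24.7 in any library, and Vtn was not analysed here.

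The gut-homing pair came next. Itga4, the alpha chain shared by the gut-homing receptor and the VCAM-1 receptor, had 1071, 2228 and 1311 in WT replicates 1, 2 and 3 and 1787, 1548 and 1154 in the libraries labelled Bach2-cKO. Itgb7, its partner in gut homing and also the partner of Itgae, had 794, 850.3 and 641 against 863, 1012 and 759.9. The groups overlapped for both genes, and the highest Itga4 value of all was in WT replicate 2. The log2 fold changes were 0.01 for Itga4 (95% interval -0.63 to 0.65, adjusted p = 0.988, limma) and 0.21 for Itgb7 (95% interval -0.28 to 0.69, adjusted p = 0.595, limma). Itga4 changed sign to -0.03 under median-ratio rescaling and to -0.22 without WT replicate 1, but was 0.12 under quantile normalization. Itgb7 was -0.10 with length and GC content adjusted for. Itga4 (chr2:79255426-79333123) overlaps Cerkl on the other strand, and Itgb7 (chr15:102215995-102231944, minus strand) overlaps no annotated gene.

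Itgb1, the most widely shared beta chain, which pairs with Itga4 and Itga6, had 732, 796 and 617 in WT replicates 1, 2 and 3 and 962, 782 and 541 in the libraries labelled Bach2-cKO. Both the highest and the lowest of the 6 values belonged to libraries labelled Bach2-cKO. The log2 fold change was 0.06 (95% interval -0.51 to 0.63, adjusted p = 0.913, limma), and -0.13 without the library labelled Bach2-cKO replicate 1. Itga6, which with beta 1 forms a laminin receptor, had 321, 232 and 307 against 272, 438 and 321. Its groups overlapped, with a log2 fold change of 0.25 (adjusted p = 0.627, limma) that ranged from 0.058 to 0.40 as single libraries were left out. Itgb1 (chr8:128685654-128733200) overlaps no annotated gene, and Itga6 (chr2:71745616-71858416) overlaps 4, on both strands.

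Itgae, or CD103, holds lymphocytes to E-cadherin of the gut epithelium together with beta 7. It had 63.6, 174 and 103 in WT replicates 1, 2 and 3 and 123, 222 and 153 in the libraries labelled Bach2-cKO. In both groups replicate 2 was the highest, and WT replicate 2 was above replicates 1 and 3 of the other group. The log2 fold change was 0.62 (95% interval -0.36 to 1.60, adjusted p = 0.421, limma) and 0.27 without WT replicate 1. Itgae (chr11:73090583-73147446) overlaps Haspin on the other strand.

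Itgav and Itgb3 form the vitronectin receptor. Itgav had 268, 350.0 and 469 in WT replicates 1, 2 and 3 and 433, 553 and 371 in the libraries labelled Bach2-cKO, with overlapping groups and a log2 fold change of 0.34 (adjusted p = 0.498, limma), or 0.14 without WT replicate 1. Itgb3 was the lowest of the 10 genes, with 17.2, 57.2 and 11.4 against 69.5, 159 and 16.4. Its groups overlapped, replicate 2 being the highest in each and replicate 3 the lowest. These values stand for 51 and 11 recovered reads in WT replicates 2 and 3 and for 47, 238 and 16 in the libraries labelled Bach2-cKO, so counting error alone is large at the lowest of them. The log2 fold change was 1.30 with a 95% interval of -0.70 to 3.30 (adjusted p = 0.409, limma), and it ranged from 0.57 to 2.17 as single libraries were left out. With library weights, an alternative chosen after seeing the data, it was 2.70 (adjusted p = 0.00464, limma). That fit gave a weight of 5.54 to the library labelled Bach2-cKO replicate 2, where Itgb3 was highest, and of 0.421 to replicate 3, where it was lowest in that group, and without replicate 2 the unweighted log2 fold change was 0.57. Over all alternatives the adjusted p of Itgb3 ran up to 0.832. Itgb3 (chr11:104608000-104670476) overlaps no annotated gene, and Itgav (chr2:83724397-83806916) overlaps Dnmt3l-ps1 and Gm13684 on the other strand.

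**Figure D2:**
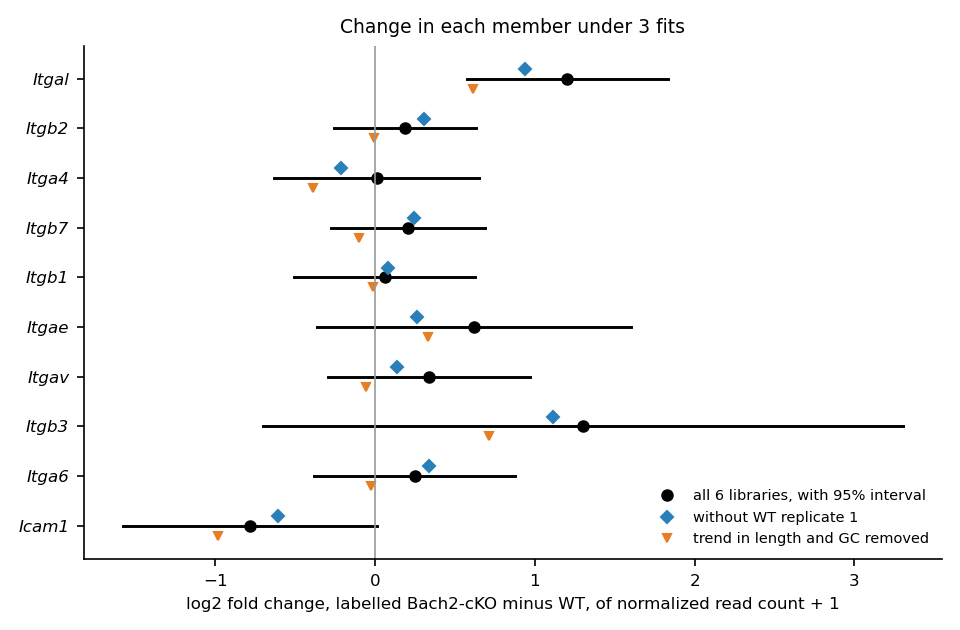
Log2 fold change of each of the 10 genes, libraries labelled Bach2-cKO minus WT, on the log2(normalized read count + 1) scale, with the 95% interval of the limma fit over all 6 libraries (circles and lines), without WT replicate 1 (diamonds) and with transcript length and GC content adjusted for (triangles). The interval of Itgal, 0.57 to 1.83, is the only one that leaves out 0, and Itga4 changes sign under both alternatives.

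In limma, the test fixed for this comparison, no gene in the table passed the thresholds, more than a 2-fold change at an adjusted p below 0.01. In the limma fit 0 of 11296 genes passed (0%), so 0 of the 10 genes did, and no adjusted p was below 0.141. Before adjustment, 2301 genes had a p under 0.05. The count test edgeR, on the whole reads of 5 libraries, called 0 genes, and DESeq2 on the same reads called 90 of 11295 (0.797%), 33 higher and 57 lower, none of them among the 10. DESeq2 gave Itgal a log2 fold change of 0.95 with an adjusted p of 0.0301, past neither threshold. In the limma fit 1 of the 10 genes, Itgal, was higher at an unadjusted p under 0.05, where 10.1% of all tested genes were, and 0 were lower, where 10.2% were. Groups that did not overlap were found for 1 of 10 genes in the higher direction, against 14.6% of all tested genes, and for 1 of 10, Icam1, in the lower direction, against 12.2%. These shares are near the background, so the 10 genes as a list did not stand out.

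The log2 fold change was above 0 for 9 of the 10 genes, beside 6185 of all 11296 tested genes. The median was 0.23 beside 0.08 for all tested genes. Under median-ratio rescaling, where Itga4 turned, 8 of 10 were above 0, beside 5938 of 11296. With length and GC content adjusted for, 3 of 10 were, Itgal, Itgae and Itgb3, beside 5194 of 10962. The median was then -0.02 beside -0.04 for all genes.

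Levels of different genes were compared per kb of the longest annotated transcript. In the WT libraries the order by mean was Itgb2 (690 ± 108 per kb, SD, n = 3), Itgal (458 ± 131), Itgb7 (284 ± 40.5), Itgb1 (187 ± 23.9), Itga4 (157 ± 62.5), Icam1 (94.0 ± 20.8), Itga6 (66.5 ± 11.1), Itgav (51.4 ± 14.3), Itgae (29.5 ± 14.5) and Itgb3 (4.94 ± 4.31). Ranges of neighbours overlapped for Itgal and Itgb7, Itgb1 and Itga4, Itga4 and Icam1, Itga6 and Itgav, and Itgav and Itgae, and the other neighbours were apart in all 3 libraries. In the libraries labelled Bach2-cKO Itgal came first (1055 ± 324 per kb), with a range that overlapped that of Itgb2 (784 ± 109), and Icam1 (55.7 ± 17.7) stood eighth in place of sixth. In that group the ranges of Itgb1 and Itga4, Itga6 and Itgav, Itgav and Icam1, and Icam1 and Itgae overlapped as well. Itgb7, Itgb1, Itga4, Itgae and Itgb3 held the same places in both groups. Which transcripts were in use was not measured, so a level per kb is a low estimate where shorter ones were.

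**Figure D3:**
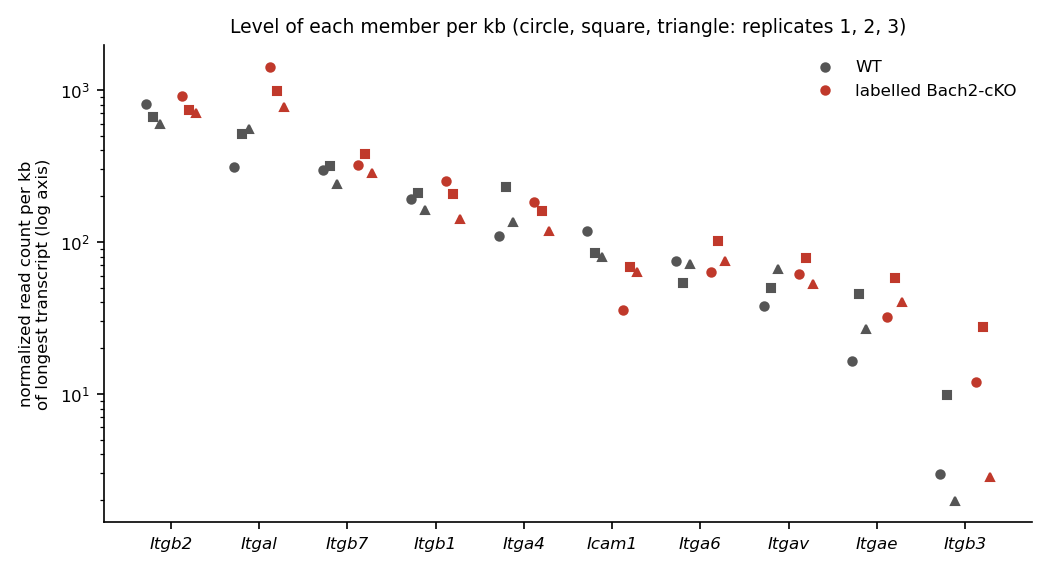
Normalized read count per kb of the longest transcript on a log axis, for the 10 genes in order of their WT mean, in 3 WT libraries and 3 libraries labelled Bach2-cKO. The levels run from 690 per kb for Itgb2 to 4.94 for Itgb3 in the WT mean, and Itgal passes Itgb2 in every library labelled Bach2-cKO.

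Of the other 6 ratios of subunits that pair or compete, none had groups that did not overlap. The ratio of Itga4 to Itgb7 per kb lay between 0.370 and 0.719 in the WT libraries and between 0.417 and 0.568 in the others. That of Itgb7 to Itgb1, which compete for Itga4, lay between 1.48 and 1.54 in WT libraries and between 1.28 and 2.0 in the others, with beta 7 above beta 1 per kb in all 6 libraries. Itgae was far below Itgb7 in every library, at 0.0567 to 0.143 in WT libraries and 0.0999 to 0.153 in the others. Exact two-sided permutation p-values of these 6 ratios lay between 0.4 and 0.9, where 0.1 was the smallest that could be reached.

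**Figure D4:**
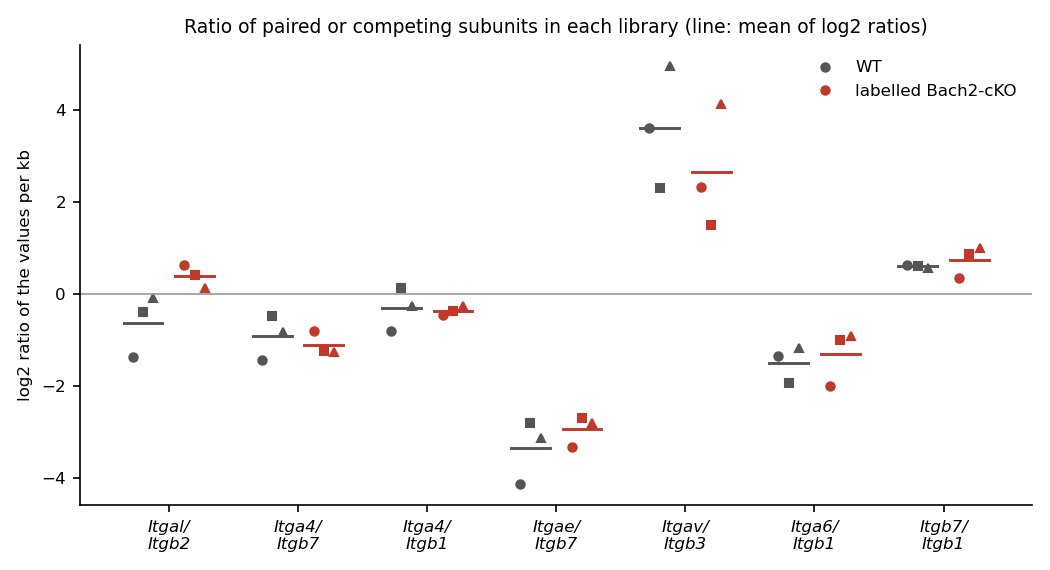
Log2 ratio of the values per kb of 7 pairs of subunits in each of the 6 libraries, with a line at each group's mean, where 0 marks equal values per kb. For Itgal and Itgb2 the 3 WT libraries lie below 0 and the 3 libraries labelled Bach2-cKO above it, and for the other 6 pairs the groups overlap.

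Apart from Itgb8, further integrin subunits had low values. Of 18 other subunit genes, 15 were in the table and 5 were tested, and the 10 untested ones did not exceed 31.5 in any library. Itgb8, the partner of Itgav in the receptor that activates latent TGF-beta, was the most abundant, with 220.0, 598 and 825 in WT replicates 1, 2 and 3 and 315, 405 and 156 in the libraries labelled Bach2-cKO. The groups overlapped through WT replicate 1. Its log2 fold change was -0.81 over all 6 libraries (adjusted p = 0.359, limma) and -1.37 without WT replicate 1 (adjusted p = 0.143, limma), and DESeq2 on 5 libraries gave -1.31 (adjusted p = 0.0280). Itga7, a laminin receptor chain, and Itgax, which pairs with Itgb2 on dendritic cells, had values of 16.8 to 69.5 and of 9.21 to 51.7 over the 6 libraries, and over all 6 libraries 0 of the 5 tested genes had an unadjusted p under 0.05, beside 10.1% higher and 10.2% lower of all tested genes. Itgb8 was lower at that p without WT replicate 1, in DESeq2, and with length and GC content adjusted for.

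The genes that activate integrins from inside the cell were next. Of 24 activators and adaptors 21 were tested, and 7 were higher and 1 lower at an unadjusted p under 0.05, where 10.1% and 10.2% of all tested genes were, with a median log2 fold change of 0.50 beside 0.08 for all genes. Mob1a, an adaptor of the kinase Mst1 in lymphocyte adhesion, had 811, 793 and 782 in WT replicates 1, 2 and 3 and 1558, 1636 and 1206 in the libraries labelled Bach2-cKO. Every library labelled Bach2-cKO was above every WT library for Mob1a, Rapgef1, which loads Rap1 with GTP, and Cyth1, which binds the tail of beta 2. Their log2 fold changes were 0.87 (adjusted p = 0.141), 1.01 (adjusted p = 0.146) and 1.0 (adjusted p = 0.153) in limma. Rap1b, the GTPase itself and the most abundant of the list, had 7373, 7997 and 7129 against 4218, 5429 and 6259, so every library labelled Bach2-cKO was below every WT library, and the log2 fold change was -0.52 (adjusted p = 0.201, limma). The count of 7 fell to 4 without WT replicate 1 (beside 9.82% of all genes, the medians being 0.26 and 0.025) and to 2, Mob1a and Cyth1, with length and GC content adjusted for, where 5.07% of all genes were higher at that p. With that adjustment Rap1b was at -0.27, with an adjusted p of 0.545 in limma, and the 1 lower gene was Lcp2, beside 9.94% of all genes. Rapgef1 was then at 0.21, Mob1a at 0.72 and Cyth1 at 0.68.

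Among the 11 genes of the list named integrin inhibitors, 3 were higher and 0 lower at an unadjusted p under 0.05, beside 10.1% and 10.2% of all tested genes. Flna, or filamin A, which competes with talin for the beta tail, had 904, 1164 and 843 in WT replicates 1, 2 and 3 and 2089.8, 1574 and 1365 in the libraries labelled Bach2-cKO, apart in all 6. Its log2 fold change was 0.78 (adjusted p = 0.149, limma) and -0.01 with length and GC content adjusted for. Rasa3 and Sipa1, which switch Rap1 off, had log2 fold changes of 0.77 (adjusted p = 0.172, limma) and 0.79 (adjusted p = 0.231, limma), and Slfn2 was the most abundant of the list, at 2892 to 5995. With length and GC content adjusted for, Rasa3 was at 0.32 and Sipa1 at 0.19. With that adjustment 0 of the 11 had an unadjusted p under 0.05, beside 5.07% higher and 9.94% lower of all genes, and without WT replicate 1 the count was 2 higher and 0 lower, beside 9.82% and 9.42% of all genes, with a median log2 fold change of 0.16 in place of 0.43, where that of all genes was 0.025 in place of 0.08.

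Of the 18 tested genes of focal adhesions and signaling from integrins, 2 were higher and 2 lower at an unadjusted p under 0.05, a share of 11.1% each way beside 10.1% and 10.2% of all tested genes. Cd81, a tetraspanin that sits beside integrins in the membrane, had 807, 472 and 605 in WT replicates 1, 2 and 3 and 238, 320 and 349 in the libraries labelled Bach2-cKO. The kinase gene Ptk2b, or Pyk2, had 827, 647 and 817 against 1411, 1129 and 1167. Neither gene's groups overlapped. Their log2 fold changes were -1.04 (adjusted p = 0.142, limma) and 0.70 (adjusted p = 0.151, limma), and that of Actn1, an actin crosslinker, was 0.92 (adjusted p = 0.211, limma), or 0.57 without WT replicate 1. With length and GC content adjusted for, 0 were higher at that p, Ptk2b being at 0.24 and Actn1 at 0.58, and 2 were lower, Cd81 and Zyx, beside 5.07% and 9.94% of all genes. Without WT replicate 1 the counts were 1 higher, Ptk2b, and 1 lower, Cd81, beside 9.82% and 9.42%. Cd47, which binds integrins in the same membrane, had the highest mean over the 6 libraries, at 2156 to 3762, though not within either group.

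Of 12 selectins and other adhesion receptors 1 was higher and 3 lower at an unadjusted p under 0.05, beside 10.1% and 10.2% of all tested genes. Cd44, a hyaluronan receptor whose protein was part of the gate, had 1090.1, 1776 and 1741 in WT replicates 1, 2 and 3 and 3856, 2615 and 2313 in the libraries labelled Bach2-cKO. Cd48, a ligand of Cd2 in the mouse, had 5409, 7075 and 8014 against 3371, 4467 and 5131, and Cd96, a receptor for nectin-like ligands, 1819, 2339.9 and 1714 against 1166, 899.9 and 1436. The groups were apart for all 3 genes, Cd44 being higher and Cd48 and Cd96 lower in the libraries labelled Bach2-cKO. The log2 fold changes were 0.93 (adjusted p = 0.146), -0.66 (adjusted p = 0.171) and -0.76 (adjusted p = 0.151) in limma. Cd2 was the most abundant of the list, at 3019 to 9186, with a log2 fold change of -0.75 (adjusted p = 0.192, limma). All 3 lower genes lost that p with length and GC content adjusted for, at -0.17 for Cd48, -0.52 for Cd96 and -0.50 for Cd2. The 1 lower gene was then Crtam, while Cd44 was still higher at 0.61, beside 9.94% lower and 5.07% higher of all genes. Crtam had 1289 in WT replicate 1 and 37.8 to 153 in the other 5 libraries, and its log2 fold change of -2.01 was -0.83 without that library.

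**Figure D5:**
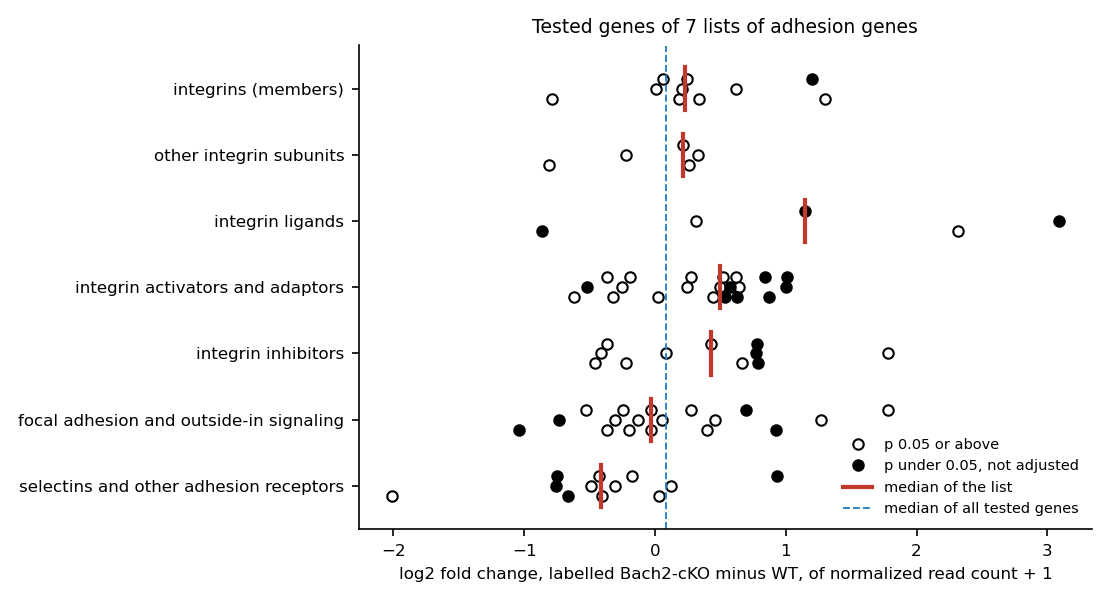
Log2 fold change, libraries labelled Bach2-cKO minus WT, of every tested gene of 7 lists of adhesion genes, filled where the unadjusted p of the limma fit was under 0.05, with a red line at the median of the list and a dashed line at 0.08, the median of all tested genes. The activators and adaptors have 7 filled points on the right and 1 on the left, beside 10.1% and 10.2% of all tested genes. The count on the right fell to 2 with length and GC content adjusted for, beside 5.07% of all genes.

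The genes whose pattern was most like that of Itgal, by the mean absolute difference of centred log2 values over the 6 libraries, were Pigm (0.0760), Pygo2 (0.0861) and Rere (0.0897). Those most like Icam1 were Mettl16 (0.0702), Pea15a (0.0959) and Adi1 (0.103). Pigm, for instance, had 86.8, 163 and 188 in WT replicates 1, 2 and 3 and 430.1, 301 and 218 in the libraries labelled Bach2-cKO, the same order of libraries as Itgal.

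Markers of other cells were read beside these results. The Th17 list, with 5 genes in the table, summed to 1486, 635 and 340.0 in WT replicates 1, 2 and 3 and to 176, 103 and 99.2 in the libraries labelled Bach2-cKO, Ccr6 being its most abundant gene and Il17a at 0 in WT replicate 1 and in the library labelled Bach2-cKO replicate 2. Of its 4 tested genes 3 were lower at an unadjusted p under 0.05, beside 10.2% of all tested genes. Without WT replicate 1 the count was 2, beside 9.42%. The CD8 or NK list, 7 genes led by Nkg7, summed to 6134, 4710.1 and 3654 against 1587, 4621 and 2399. Nkg7 alone gave 5536 of the 6134 in WT replicate 1. In that library Cd8a (48.4), Cd8b1 (127), Gzma (107) and Ncr1 (0) were at their lowest of the 6 libraries. Prf1 was at its highest there (200, against 6.14 to 42.6 elsewhere), and Klrb1c (115) was neither highest nor lowest. Of the 6 Treg genes, among them Itgae, 3 were lower at an unadjusted p under 0.05, beside 10.2% of all tested genes, and Foxp3 had 222, 315 and 344 against 47.3, 140.0 and 91.0. Ikzf2 was the most abundant, and the Treg sums of 6013 to 7990.0 in WT libraries and 4797 to 6512 in the others overlapped.

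The 9 myeloid or dendritic cell genes, all in the table, summed to 5984, 14273 and 8137 in WT replicates 1, 2 and 3 and to 6250.2, 12060.1 and 4889 in the libraries labelled Bach2-cKO, with Cst3 and Lyz2 abundant and Clec9a at 0 in at least 1 library. The sum was highest in replicate 2 of each group, where Itgb3 and Itgae were highest as well. The 5 tested B cell genes, led by Cd79b, summed to 204, 710.0 and 489 in WT replicates 1, 2 and 3 and to 197, 231 and 259.8 in the libraries labelled Bach2-cKO. Of these 1, Ms4a1, was lower at an unadjusted p under 0.05 over all 6 libraries, beside 10.2% of all tested genes, and 3 were without WT replicate 1, beside 9.42%. Cd79a had 19.2, 208 and 140.4 against 22.2, 14.7 and 45.0, with overlapping groups, and its log2 fold change was -1.72 (adjusted p = 0.280, limma), or -2.71 in DESeq2 on 5 libraries (adjusted p = 0.000455).

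The part of myeloid, CD8 or NK, Treg, Th17 and B cells in the values of the 10 genes was not tested.

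Platelet and stromal genes were near 0. Of the platelet or megakaryocyte markers 2 were in the table, Gp1ba and Itga2b, with sums of 0 in every WT library and of 2.96, 10.7 and 2.05 in the libraries labelled Bach2-cKO, and the 5 stromal or endothelial markers led by Cdh5 summed to 14.8 or less in every library. The proliferation list, 8 genes led by Pcna, summed to 16252, 8077 and 12133 in WT libraries and to 10001, 7938 and 10787 in the others, and the 10 immediate early genes led by Junb summed to 3063, 2286 and 2694 against 3365, 3363 and 3058. The naive T cell list, 7 genes led by Tcf7, summed to 11898, 12679 and 9591 against 14002, 13869.9 and 12027, and the Tfh list, led by Sh2d1a, to 21611, 25999 and 35469 against 26807, 19739.5 and 25997.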

How the data were processed

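The deposited signal was a read count per gene symbol divided by a size factor, made by the authors with HTSeq and DESeq2 after alignment. The aligner is given as Tophat2 in the paper's methods and as STAR 2.5.2b in the submitters' processing notes, which name GRCm38 and DESeq2 1.20.0. cDNA was made and amplified with a SMARTer Ultra Low kit, and libraries were made with a TruSeq kit and sequenced on an Illumina NextSeq instrument.

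From these values log2(value + 1) was fitted in R 4.3.3 by limma 3.58.1, with eBayes following the variance trend. The 11296 genes that reached 10 in at least 3 libraries were tested. P-values were adjusted by Benjamini-Hochberg over all of these genes. The added 1 pulls fold changes of low genes toward 0, but a single library at or near 0 can still make them large. Icam4, at 0 in WT replicate 1, had a log2 fold change of 3.09 here. In DESeq2 on 5 libraries, without that library, it was 1.83. Whole reads, within 0.01, came out for 100% of the values. edgeR 4.0.16 and DESeq2 1.42.0 were run on 5 libraries. WT replicate 1 also came out whole, with a step of 1.01, and was left out of both only because a rule applied to units here did not accept a step that near 1.

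Lengths, positions and overlaps were taken from GENCODE M21 on GRCm38, with 14329 of 14744 symbols matched. Promoters were taken from RefSeq. The members and lists were chosen with earlier results of these data known. Besides the members, the genes named were the 3 tested genes with the smallest p and the most abundant gene of each pathway list. The 3 genes most like each of the 2 members with the smallest p were named as well. Marker lists were given by their sums (B cell over its tested genes). The Tfh, Th17, Treg and B cell lists were also given by counts at an unadjusted p under 0.05. The most abundant gene is that of the highest mean normalized read count over the 6 libraries, not per length. All other genes named singly, such as Cd3e, Foxp3, Cd79a, Zyx, Lcp2, Crtam, Vcam1, Spp1 and the untested ligands, were chosen after their values were seen. Alternatives were other pseudocounts, filters, scalings, variance models and count tests, the replicate number as a block, and each library left out.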

Additional observations from a re-analysis of the deposited data

How the results depend on the processing

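Over 18 alternatives the log2 fold changes of the 10 genes kept their sign in 165 of 180 cases, and 4 genes (Itgal, Itgae, Itgb3 and Icam1) kept it throughout. The sign of Itga4 turned to -0.027 under median-ratio rescaling, -0.26 in edgeR and -0.28 in DESeq2. With length and GC content adjusted for, chosen after seeing the data, it turned for Itga4 (-0.39), Itgb2 (-0.0054), Itgb7 (-0.10), Itgb1 (-0.013), Itgav (-0.056) and Itga6 (-0.023). As each library was left out, Itga4 ranged from -0.22 to 0.31 and Itgb1 from -0.13 to 0.29. The ranges were 0.076 to 0.31 for Itgb2, 0.086 to 0.30 for Itgb7, 0.14 to 0.54 for Itgav and 0.27 to 0.98 for Itgae. The adjusted p of Itgal ranged from 0.000877 to 0.501, the lowest with library weights, where its log2 fold change was 0.94.

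The count of genes past the thresholds, 0 in limma, was 90 in DESeq2 on 5 libraries and 1128 with library weights, also chosen after seeing the data. Of the 10 genes, 1 was below an unadjusted p of 0.05 in the first fit, where 20.4% of all tested genes were. The count was 2 with a mean of at least 50 (beside 23.7% of all tested genes), quantile normalization (21.4%), median-ratio rescaling (20.7%) or length and GC content adjusted for (15.0%). It was 5 with library weights (47.2%), and 1 to 2 as each library was left out (9.55% to 27.6%). The cause was not tested. With the replicate block, the replicate number as a term, 0 genes passed, and 1 of the 10 had an unadjusted p under 0.05, beside 18.2% of all tested genes. Whether equal replicate numbers mark paired samples is not given in the sources used here. Libraries of the same number deviated from their group means with correlations of -0.07, 0.12 and -0.04, and 2 of 6 libraries correlated best with their own number. With 3 libraries per group these values cannot decide whether samples were paired. Depth limited Itgb3 most, with 11 to 238 recovered reads in 5 libraries.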
